A study of Homo sapiens with 6 samples.

Results

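The HOX genes were followed through a stepwise transformation series of human foreskin fibroblasts. Members were the genes whose symbol is HOXA, HOXB, HOXC or HOXD plus a number, together with the long noncoding RNAs HOTAIR and HOTTIP, wherever a probe set carried that symbol alone. Of 41 such symbols 27 were measured, out of 18417 genes on the array: HOXA2, all 10 HOXB genes, 7 of 9 HOXC genes and all 9 HOXD genes. The other 14 symbols, namely HOTAIR, HOTTIP, HOXC4, HOXC6 and 10 of 11 HOXA genes, had no probe set of their own in the annotation used and were not analysed here, so that the HOXA cluster stands here on a single gene. Each member had 1 probe set.

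The series compares 3 cell lines with 2 arrays each, and total RNA was read on a whole-transcript expression array. BJ cells are primary human foreskin fibroblasts. BJEL cells are BJ cells that carry hTERT (the telomerase catalytic subunit) and an SV40 early region, which encodes the large T and small t antigens, and they were kept under G-418 and hygromycin. BJELM cells are BJEL cells with a retroviral MYC-ER, a MYC protein fused to an oestrogen receptor domain, kept under puromycin as well and grown in 4-hydroxytamoxifen throughout. All 3 lines shared one culture medium with fetal calf serum. Since the selection drugs and 4-hydroxytamoxifen came with the introduced genes, their effects cannot be told apart. Each step is 1 derived line, and the arrays are described as biological replicates with no further detail, so p-values measure the spread between arrays of a line.

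The lines were checked against their labels before the HOX genes were read. TERT signal was 7.77 and 7.88 in BJ, 10.71 and 10.97 in BJEL and 10.84 and 10.78 in BJELM. It rose by 3.02 ± 0.11 (SE) on the log2 scale from BJ to BJEL. Thus TERT set both derived lines apart from BJ but not from each other. MYC signal did not follow the label: it was 9.47 and 9.61 in BJ, 10.22 and 10.12 in BJEL and 9.57 and 8.90 in the arrays labelled BJELM, and fell from BJEL to BJELM by 0.93 ± 0.21 (limma, adjusted p = 0.0444), so every direction given for BJELM rests on the label. Whether this probe set reads the MYC-ER transcript was not tested. Vimentin (VIM), a mesenchymal filament protein, stayed between 12.87 and 13.07 on all arrays. Of 11 fibroblast markers, 8 fell at least 2-fold in BJEL and 10 in BJELM against BJ, and their mean signal was 10.95 to 11.16 on BJ arrays, 9.004 to 9.091 on BJEL arrays and 8.612 to 9.198 on BJELM arrays. Of 31 measured markers of other cell types (epithelial, endothelial, leukocyte, melanocyte, neural and pluripotency genes) 0 rose against BJ, and 4 fell in BJEL (KRT18, TEK, MITF and NES) and 5 in BJELM (KRT19, CD68, MITF, NES and MAP2). In BJEL and BJELM MITF differed from BJ by -0.86 and -1.68 and NES by -2.28 and -2.01, and CD68, a lysosomal protein, fell by 1.04 in BJELM. Some of these were bright in BJ, among them KRT18 at 12.15 and 11.70 and CD68 at 11.24 and 11.41, whereas the defining markers PTPRC (leukocytes), PECAM1 (endothelium), MLANA (melanocytes) and EPCAM (epithelium) stayed between 4.37 and 5.84. The mean signal of the 31 was 6.36 to 6.43 on BJ arrays, 6.14 to 6.18 on BJEL arrays and 6.08 to 6.17 on BJELM arrays. In bulk RNA, fewer cells of a type and less RNA per cell cannot be told apart, and the part that the falls of these markers have in any HOX difference was not tested.

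HOX genes encode homeodomain transcription factors that record position along the head-to-tail axis and along the limbs and genital tubercle. They lie in 4 clusters, and their order in a cluster follows the order of their domains in the body: low paralog numbers, at the 3′ end, mark anterior positions and high numbers, at the 5′ end, mark posterior and distal ones. Adult fibroblasts keep a HOX pattern that reflects the site they came from, and foreskin is a distal, posterior site. Members bind DNA together with TALE proteins of the PBX and MEIS families, Polycomb proteins keep silent stretches closed, Trithorax proteins keep active ones open, and retinoic acid sets many of them in the embryo.

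All 27 members were read as RMA log2 signals, in which a difference of 1 is 2-fold. Signals of different probe sets have no common scale, so lines were compared within a gene. Most members were dim: 23 of 27 had a mean below 7.26, the median gene on these arrays, and the other 4 were HOXC8, HOXC10, HOXD10 and HOXD13. RMA gives no detection call, so a low signal does not show that a gene is expressed, and differences of dim probe sets understate changes in RNA. The median SD between the arrays of a line was 0.07 in BJ, 0.10 in BJEL and 0.09 in BJELM for the members, against 0.08, 0.08 and 0.10 for all genes.

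**Figure D1:**
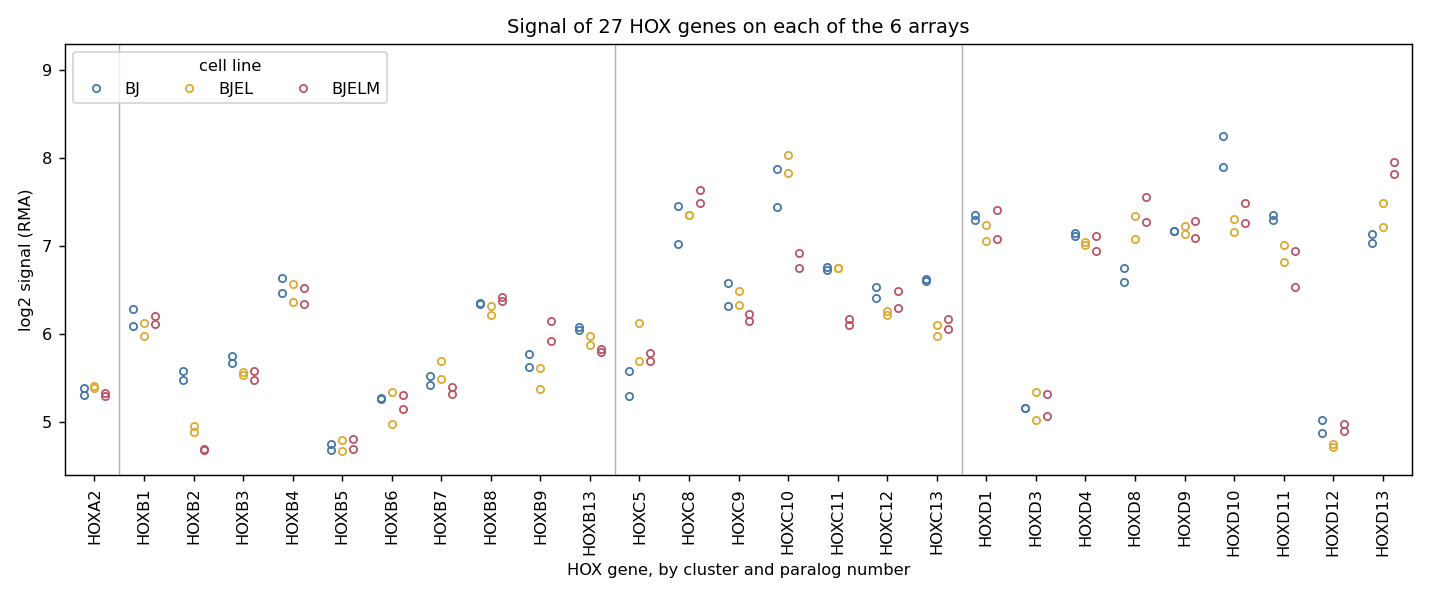
RMA log2 signal (vertical axis) of each HOX gene, ordered by cluster and paralog number (horizontal axis), on the 2 arrays of BJ (blue), BJEL (yellow) and BJELM (red). Grey lines separate the clusters. HOXB2 steps down from BJ over BJEL to BJELM, HOXC10 and HOXC11 drop in BJELM, and most other genes stay close to their BJ level.

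In the main fit, which left the replicate numbers unpaired, 8 of the 27 HOX genes passed the test in at least 1 comparison. All of them passed in BJELM against BJ, and none changed by as much as 2-fold against BJ. From BJ to BJEL 3 of 27 members fell by limma (adjusted p under 0.05), HOXB2, HOXC13 and HOXD10, and 0 rose, while 7.13% of all genes fell and 10.4% rose. In all, 11.1% of members passed against 17.5% of genes. An unadjusted limma p under 0.05 was found for 6 of 27 members and for 5638 of 18417 genes. From BJ to BJELM 8 members passed the same test, 29.6% against 28.2% of all genes. HOXB2, HOXC10, HOXC11, HOXC13, HOXD10 and HOXD11 fell (13.1% of all genes fell), and HOXD8 and HOXD13 rose (15.1% rose). From BJEL to BJELM HOXC10 and HOXC11 fell (6.28% of all genes) and HOXD13 rose (4.53%), together 11.1% against 10.8%. The shares of members that passed were lower than those of all genes at the BJEL step and close to them in the other comparisons. Arrays of the lines did not overlap for 16 of 27 members between BJ and BJEL, for 16 between BJ and BJELM and for 13 between BJEL and BJELM, where 61.2%, 60.5% and 52.8% of all genes did not overlap. With a fold change of at least 2 added to the test, 0 members passed in BJEL against BJ (5.18% of all genes) and 0 in BJELM against BJ (8.79%). Only HOXC10 passed in BJELM against BJEL, where 2.68% of all genes passed and 1.76% fell. In BJELM against BJ an unadjusted limma p under 0.05 was found for 10 of 27 members and for 6873 of 18417 genes. The comparisons with BJ share the BJ arrays.

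Single arrays decided several of these counts. The 3 members that fell in BJEL became 1 without BJ replicate 1 and 0 without BJEL replicate 1, and the 6 that fell in BJELM against BJ became 3 without BJELM replicate 2. From BJEL to BJELM the 2 that fell became 0 without BJEL replicate 1 and 1 without BJEL replicate 2 or BJELM replicate 2, and the rise was lost with each array left out.

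Sizes were also close to those of all genes. The median log2 difference of the members was -0.08 for both derived lines over BJ and 0.01 for BJELM over BJEL, beside -0.02, 0.01 and 0.03 for all genes. With 1 array left out these medians of the members ranged from -0.10 to -0.05, from -0.10 to -0.05 and from -0.01 to 0.07, and over the 4 members at or above the median signal they were 0.19, -0.19 and 0.18. Their median absolute difference was 0.14, 0.18 and 0.14, beside 0.17, 0.18 and 0.15. The 95% confidence interval of the difference stayed inside 2-fold for 26 of 27 members between BJ and BJEL, for 22 between BJ and BJELM and for 26 between BJEL and BJELM. The genes whose interval reached 2-fold were HOXD10 at the first of these steps, HOXB2, HOXC10, HOXD8, HOXD10 and HOXD13 over both steps, and HOXC10 from BJEL to BJELM. These intervals bound differences in signal. The share of all genes whose interval stayed inside 2-fold was not counted, so these counts do not set HOX genes apart from other genes. For dim members, whose differences are compressed, an interval inside 2-fold does not exclude a 2-fold change in RNA.

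Replicates with the same number deviated together, and with that number as a block in the fit more members passed. In BJEL against BJ 3 members then rose (11.1%, against 18.3% of all genes), HOXC5, HOXD8 and HOXD13, and 4 fell (14.8%, against 13.2%), with HOXD11 added. In BJELM against BJ 3 rose (21.2% of all genes rose), with HOXC5 added, and 8 fell (18.4%), with HOXB13 and HOXC9 added. In BJELM against BJEL 2 rose (10.3%), with HOXB9 added, and HOXC10 and HOXC11 fell (14.1%). HOXB9 passed in this comparison alone.

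By position in the clusters, the 12 members with paralog numbers 9 to 13 held most of the genes that passed in BJELM against BJ. In that class 5 fell and 1 rose, beside 13.1% and 15.1% of all genes, with a median difference of -0.26. Of the 8 members with numbers 1 to 4, HOXB2 alone passed, and of the 7 with numbers 5 to 8, HOXD8 alone, where 28.2% of all genes passed. In the main fit all members that passed with numbers 9 to 13 lay in HOXC and HOXD, which hold 10 of the 12 members of that class. The others are HOXB9 and HOXB13, which passed with the replicate block in BJELM against BJEL and in BJELM against BJ. The classes also differed in brightness. Their mean signal on BJ arrays was 6.654 to 6.738 for numbers 9 to 13, 6.107 to 6.135 for 1 to 4 and 5.841 to 5.923 for 5 to 8. Whether the classes differ from each other in their changes, and the part that brightness has in these counts, was not tested.

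**Figure D2:**
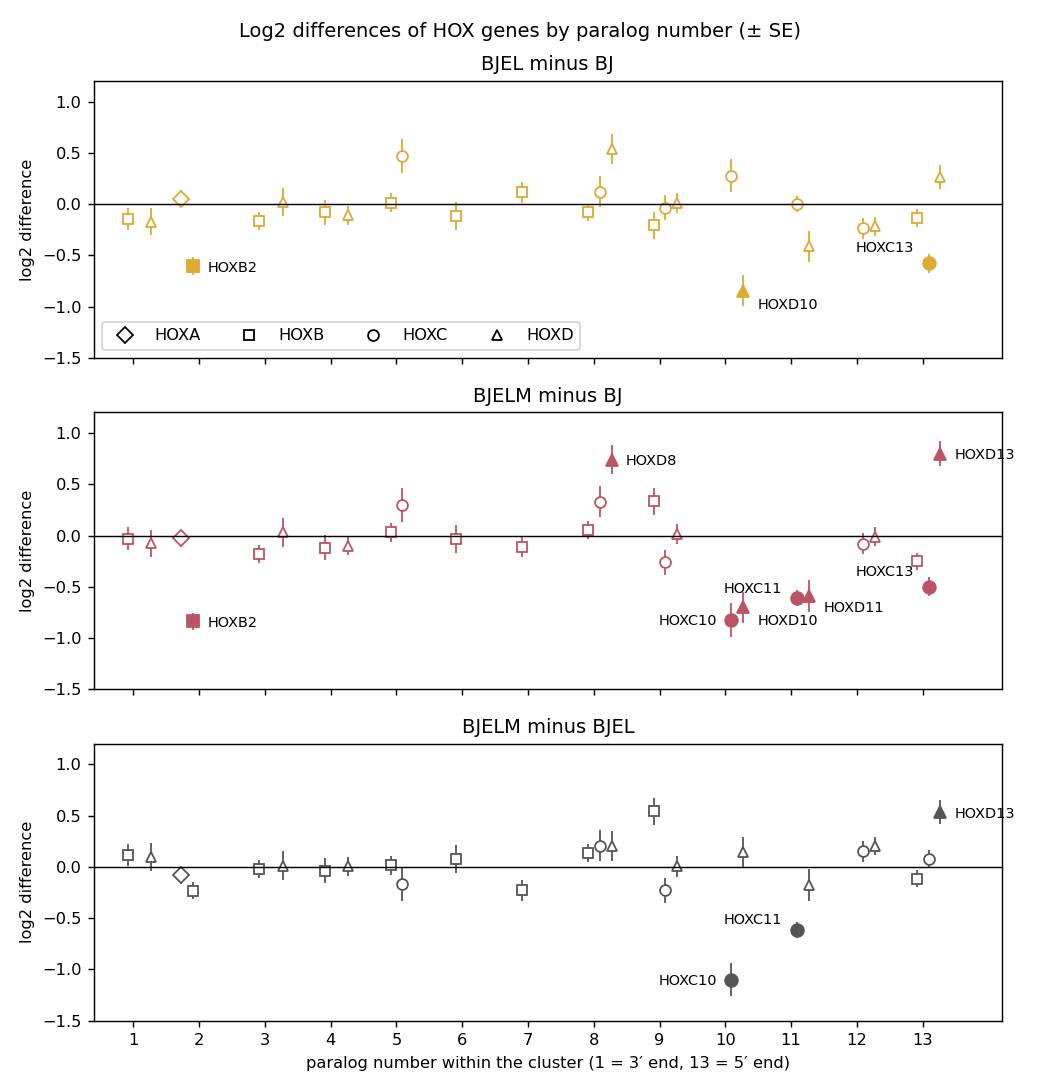
Log2 difference ± SE (vertical axis) of each HOX gene against its paralog number (horizontal axis) for BJEL minus BJ, BJELM minus BJ and BJELM minus BJEL, with 2 arrays per line. Symbols mark the cluster and filled, named symbols an adjusted p under 0.05. Filled symbols gather at numbers 10 to 13, where HOXC and HOXD genes fell and HOXD13 rose, with HOXB2 and HOXD8 outside that stretch.

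In the HOXB cluster on chromosome 17, HOXB2 was the single member that passed. HOXB2 patterns the hindbrain and the neural crest that leaves it. Its log2 signal was 5.58 and 5.48 in BJ, 4.89 and 4.96 in BJEL and 4.70 and 4.69 in BJELM. The arrays of the 3 lines did not overlap, with BJ on top and BJELM at the bottom. HOXB2 fell by 0.61 ± 0.09 from BJ to BJEL (1.52-fold, adjusted p = 0.00642) and by 0.84 ± 0.09 from BJ to BJELM (1.79-fold, adjusted p = 0.00123). The step from BJEL to BJELM was -0.23 ± 0.09 and did not pass (adjusted p = 0.157). Without BJ replicate 1 or BJEL replicate 1 the fall in BJEL had an adjusted p of 0.0539 or 0.0529. All HOXB2 signals lie in the lower part of the array's range, and the RefSeq span of HOXB2 overlaps that of HOXB-AS1, whose part in the signal was not tested.

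The other 9 HOXB genes did not pass in any comparison. HOXB9, which takes part in placing the forelimb and the ribs, had 5.78 and 5.63 in BJ, 5.38 and 5.61 in BJEL and 6.16 and 5.92 in BJELM. Its BJELM arrays were above all others, by 0.54 ± 0.13 over BJEL (adjusted p = 0.0507, and 0.0184 with the replicate block). HOXB13, a gene of the tail end of the body and the prostate, read 6.08 and 6.05 in BJ, 5.87 and 5.99 in BJEL and 5.80 and 5.83 in BJELM, with each BJ array above all later ones; its difference of -0.25 ± 0.08 in BJELM against BJ had an adjusted p of 0.0775, and 0.044 with the block. HOXB5 showed no such order, with all 6 arrays between 4.68 and 4.81. HOXB3, HOXB4, HOXB6, HOXB7 and HOXB8 differed between lines by at most 0.23, and HOXB1, the most 3′ gene of the cluster, by 0.14.

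HOXA2, a gene of the second pharyngeal arch and the only measured HOXA gene, had signals between 5.30 and 5.41 on all arrays. Its differences were 0.05 ± 0.08 in BJEL against BJ and -0.03 ± 0.08 in BJELM against BJ, with 95% intervals of -0.15 to 0.25 and -0.23 to 0.17.

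The HOXC cluster on chromosome 12 held the call of at least 2-fold. HOXC10 and HOXC11 are active in the hindlimb and the lower trunk, and they passed in BJELM against both other lines. HOXC10 read 7.87 and 7.45 in BJ, 8.03 and 7.84 in BJEL and 6.92 and 6.75 in BJELM. Both BJELM arrays were below all others, while BJ and BJEL overlapped. HOXC10 fell by 1.10 ± 0.16 from BJEL to BJELM (2.14-fold, adjusted p = 0.0126) and by 0.82 ± 0.16 from BJ to BJELM (1.77-fold, adjusted p = 0.0122), against 0.28 ± 0.16 from BJ to BJEL (adjusted p = 0.319). Without BJEL replicate 1 the step from BJEL to BJELM was -1.001 (adjusted p = 0.0811), and without BJELM replicate 2 it was -1.02 (adjusted p = 0.0579), while the difference from BJ was then -0.74 (adjusted p = 0.0553).

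HOXC11, its neighbour on the 5′ side, gave 6.76 and 6.74 in BJ, 6.75 and 6.75 in BJEL and 6.10 and 6.17 in BJELM. BJ and BJEL were level, and the BJELM arrays stood apart below them. It fell by 0.61 ± 0.08 both from BJ (adjusted p = 0.0028) and from BJEL (adjusted p = 0.00884) to BJELM. The difference between BJEL and BJ was 0.00 ± 0.08, with a 95% interval of -0.19 to 0.20. Without BJEL replicate 1 or 2 the fall from BJEL had an adjusted p of 0.0622 or 0.0526.

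HOXC13, the most 5′ HOXC gene and a regulator of hair and nail keratins, went down earlier in the series. Its signals were 6.63 and 6.60 in BJ, 5.98 and 6.10 in BJEL and 6.06 and 6.17 in BJELM. BJEL and BJELM overlapped each other and lay below BJ. It fell by 0.58 ± 0.09 in BJEL (adjusted p = 0.00961), its difference in BJELM was -0.50 ± 0.09 (adjusted p = 0.00927), and the step between these lines was 0.08 ± 0.09 (adjusted p = 0.667). Without BJ replicate 1 neither fall passed (adjusted p = 0.0679 and 0.0611), and without BJEL replicate 1 the fall in BJEL did not (adjusted p = 0.0691).

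HOXC12 lies between HOXC13 and HOXC11 and did not pass, at -0.23 ± 0.10 in BJEL and -0.08 ± 0.10 in BJELM against BJ. From HOXC13 to HOXC10 the RefSeq genes span 51.4 kb. Within that stretch HOXC13 was lower from BJEL on, HOXC12 did not pass, and HOXC11 and HOXC10 were lower in BJELM only. Farther 3′, HOXC9 was -0.26 ± 0.12 (adjusted p = 0.175, 0.0438 with the replicate block) and HOXC8 0.33 ± 0.15 (adjusted p = 0.18) in BJELM against BJ. HOXC5 read 5.58 and 5.30 in BJ, below the 6.12 and 5.70 in BJEL and the 5.79 and 5.69 in BJELM. Its difference of 0.47 ± 0.17 in BJEL had an adjusted p of 0.111, and 0.0101 with the block. In BJELM against BJ the difference was 0.30 ± 0.17, with an adjusted p of 0.26, and 0.0452 with the block. RefSeq spans of HOXC10, HOXC11 and HOXC13 overlap the noncoding genes HOXC-AS3, HOTAIR and HOXC13-AS, and that of HOXC5 overlaps HOXC4 and HOXC6; how far these are read by the same probes was not tested.

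**Figure D3:**
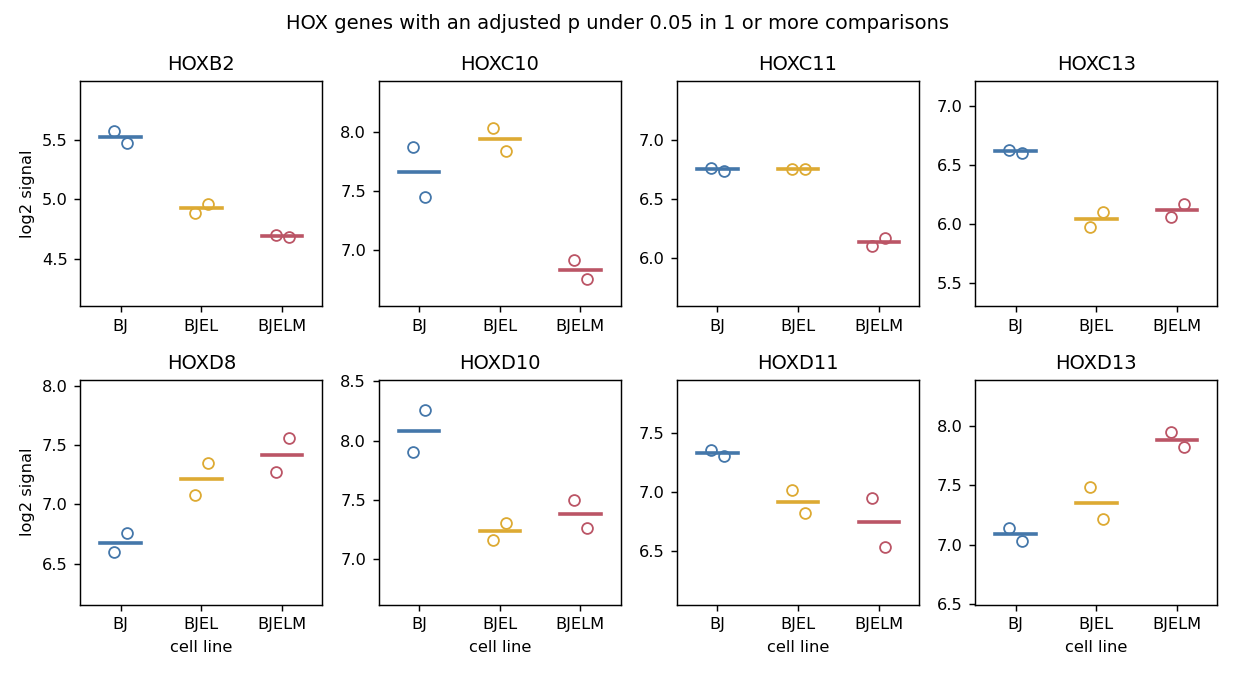
RMA log2 signal (vertical axis) on each array (circles) and mean of each line (bars) in BJ, BJEL and BJELM for the 8 HOX genes with an adjusted p under 0.05 in any comparison. Every panel spans the same log2 range. HOXC13 and HOXD10 are low in both derived lines, HOXC10 and HOXC11 in BJELM only, and HOXD8 and HOXD13 are highest in BJELM.

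The HOXD cluster on chromosome 2 had genes that moved in opposite directions. Promoter sequences of the genes in question are shown because neighbours with different responses can be set side by side. Each is the 250 bases before the start used in the RefSeq promoter table (GRCh38.p14, + strand, 5′ to 3′), which for HOXD13 lies 5.23 kb inside the RefSeq gene span and for the others at its 5′ end. In them, capitals mark CACGTG, the E-box that MYC and other factors bind, and TGATNNAT, a composite PBX and HOX element, or its reverse complement ATNNATCA. In chromosomal order they lie at chr2:176092471-176092720 (HOXD13), chr2:176099545-176099794 (HOXD12), chr2:176107030-176107279 (HOXD11), chr2:176116528-176116777 (HOXD10) and chr2:176129455-176129704 (HOXD8).

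HOXD13: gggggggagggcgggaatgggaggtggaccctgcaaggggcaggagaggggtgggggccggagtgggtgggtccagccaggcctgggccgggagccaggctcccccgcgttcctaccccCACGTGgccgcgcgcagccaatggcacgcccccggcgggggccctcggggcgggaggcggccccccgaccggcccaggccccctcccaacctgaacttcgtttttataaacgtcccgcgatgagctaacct
HOXD12: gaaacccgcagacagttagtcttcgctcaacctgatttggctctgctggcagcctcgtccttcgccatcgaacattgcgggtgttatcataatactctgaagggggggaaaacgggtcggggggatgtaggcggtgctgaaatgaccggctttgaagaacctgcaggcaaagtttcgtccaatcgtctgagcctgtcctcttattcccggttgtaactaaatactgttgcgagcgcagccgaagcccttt
HOXD11: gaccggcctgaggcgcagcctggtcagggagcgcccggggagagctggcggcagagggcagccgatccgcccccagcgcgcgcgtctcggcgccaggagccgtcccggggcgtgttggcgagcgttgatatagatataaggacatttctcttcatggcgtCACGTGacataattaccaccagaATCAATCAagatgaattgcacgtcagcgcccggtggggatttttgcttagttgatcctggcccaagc
HOXD10: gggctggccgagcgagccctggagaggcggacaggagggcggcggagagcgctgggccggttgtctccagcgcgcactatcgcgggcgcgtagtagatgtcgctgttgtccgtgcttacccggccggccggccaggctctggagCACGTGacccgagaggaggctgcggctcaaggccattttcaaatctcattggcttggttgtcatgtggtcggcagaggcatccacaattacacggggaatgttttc
HOXD8: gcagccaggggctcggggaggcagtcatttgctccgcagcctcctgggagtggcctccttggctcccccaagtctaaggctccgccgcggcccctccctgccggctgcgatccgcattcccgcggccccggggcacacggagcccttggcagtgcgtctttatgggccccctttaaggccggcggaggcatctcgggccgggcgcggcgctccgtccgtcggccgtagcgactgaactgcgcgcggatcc

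HOXD13 acts in the digits and the genital tubercle, from which the penis and its foreskin develop, and it was higher in BJELM. Its signals were 7.14 and 7.04 in BJ, 7.49 and 7.22 in BJEL and 7.95 and 7.82 in BJELM. The lines did not overlap and BJELM was on top. HOXD13 rose by 0.80 ± 0.12 from BJ to BJELM (1.74-fold, adjusted p = 0.00454) and by 0.53 ± 0.12 from BJEL to BJELM (adjusted p = 0.0426). The step from BJ to BJEL was 0.26 ± 0.12 (adjusted p = 0.202, 0.0487 with the replicate block). The rise over BJEL did not pass with any of the 6 arrays left out, where it ranged from 0.40 to 0.67 (adjusted p of 0.0668 to 0.16).

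HOXD10 and HOXD11, which shape the forearm, the lower leg and the hindlimb motor pools, had their highest signals in BJ. HOXD10 read 7.90 and 8.26 in BJ, 7.16 and 7.31 in BJEL and 7.50 and 7.26 in BJELM. Both BJ arrays were above the other 4, and BJEL and BJELM overlapped. HOXD10 fell by 0.84 ± 0.15 in BJEL (1.80-fold, adjusted p = 0.014), and in BJELM it differed by -0.70 ± 0.15 (1.62-fold, adjusted p = 0.0166). Without BJ replicate 2 these were -0.67 and -0.52 (adjusted p = 0.0559 and 0.071). The fall in BJEL also missed the threshold without BJEL replicate 1 (0.0897) or 2 (0.0502), and that in BJELM without BJELM replicate 2 (0.0723).

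HOXD11 gave 7.36 and 7.31 in BJ, 7.02 and 6.82 in BJEL and 6.95 and 6.54 in BJELM. BJ was again on top, and BJEL and BJELM overlapped. The fall in BJELM was 0.59 ± 0.15 (1.503-fold, adjusted p = 0.0328), and leaving out any array other than BJELM replicate 1 took its adjusted p to between 0.0504 and 0.144. The difference in BJEL was -0.41 ± 0.15 (adjusted p = 0.129, 0.0216 with the replicate block). HOXD12, between HOXD11 and HOXD13, was dim at 4.72 to 5.02 and differed from BJ by -0.21 ± 0.09 in BJEL and -0.01 ± 0.09 in BJELM.

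HOXD8, a gene of the trunk, rose. Its signals were 6.60 and 6.76 in BJ, 7.08 and 7.35 in BJEL and 7.27 and 7.56 in BJELM. All BJ arrays were below the others, and BJEL and BJELM overlapped. HOXD8 rose by 0.74 ± 0.14 from BJ to BJELM (1.67-fold, adjusted p = 0.0116), and by 0.66 without BJ replicate 1 (adjusted p = 0.0737). From BJ to BJEL the difference of 0.54 ± 0.14 had an adjusted p of 0.0522, and 0.00263 with the replicate block. HOXD9, between HOXD8 and HOXD10, read 7.09 to 7.29 on all arrays, and the means of the 3 lines lay within 0.02 of each other.

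From HOXD13 to HOXD8 the genes span 45.2 kb, and along them BJELM against BJ showed a rise at HOXD13, no passing change at HOXD12, falls at HOXD11 and HOXD10, none at HOXD9 and a rise at HOXD8. RefSeq spans of HOXD9 to HOXD13 overlap no other gene, and that of HOXD8 overlaps LOC100129455. Of the 3′ HOXD genes, HOXD1 lay between 7.06 and 7.41, HOXD3 between 5.03 and 5.34 and HOXD4 between 6.95 and 7.15, and their lines differed by at most 0.17.

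The printed promoters do not sort with direction by these letters. CACGTG stands in the windows of HOXD13, HOXD11 and HOXD10, starting 131, 90 and 106 bases before the start, and in those of HOXD1 and HOXD3 (53 and 47 bases before it, with the start of HOXD3 lying 4.78 kb inside its gene span). Thus CACGTG stands in 5 of the 11 member promoters in the table used, beside 6.34% of 35116 human promoters of that length. All 5 are among the 8 HOXD promoters. In BJELM against BJ 1 of these genes rose, 2 fell and 2 did not pass. HOXD8, which rose, has no CACGTG in this window. TGATNNAT is found in HOXD11, 67 bases before the start, and in HOXA2 and HOXB1. These are 3 of the 11 member promoters, beside 6.47% of all promoters. AGGTCA, the half-site of retinoic acid receptors, is in none of the 11 member promoters, beside 12.1% of all promoters. GC content was 72.4% in the HOXD8 window, 74.0% in that of HOXD13 and 53.2% in that of HOXD12, against a median of 58.0% over all promoters. CACGTG itself holds a CG pair. The 5 HOXD windows with CACGTG held 21 to 31 such pairs, against a median of 11 over all promoters. HOXD8, HOXD12 and HOXD4, without CACGTG, held 28, 16 and 4. The share of 6.34% was not matched for this content. A match is a run of letters, not a shown binding site, and its absence covers this window only.

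In signal, some differences among HOX cofactors and regulators were larger than those of the HOX genes. Most HOX genes are dim, and differences of dim probe sets understate changes in RNA. Sizes therefore cannot be ranked between the lists as changes in RNA. MEIS1, a TALE partner of HOX proteins, read 10.01 and 9.83 in BJ, 8.78 and 9.02 in BJEL and 8.85 and 8.56 in BJELM. It fell by 1.02 ± 0.14 in BJEL (adjusted p = 0.00612), stood at -1.21 ± 0.14 in BJELM against BJ (adjusted p = 0.00192), and was the single one of 9 measured TALE genes to change by 2-fold; the call in BJEL was lost without BJ replicate 1 or BJEL replicate 1. MEIS2 fell by 0.46 ± 0.11 in BJEL (adjusted p = 0.0412), and TGIF2, a TALE repressor, rose by 0.36 ± 0.08 (adjusted p = 0.0272) and 0.56 ± 0.08 (adjusted p = 0.00355) in BJEL and BJELM.

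Of 15 measured genes of retinoic acid signalling, 5 fell at least 2-fold in BJEL and 6 in BJELM against BJ, where 2.29% and 4.7% of all genes did. ALDH1A1, which makes retinoic acid from retinal, read 11.34 and 10.61 in BJ and between 4.52 and 4.74 on the other 4 arrays, a fall of 6.31 ± 0.23 in BJEL (adjusted p = 0.000156). At that step RDH10, which makes retinal from retinol, fell by 3.64 ± 0.15, and CRABP2, a retinoic acid carrier, fell by 2.95 ± 0.13. DHRS3, a retinal reductase, fell by 2.31 ± 0.42. The receptor RARB fell by 1.69 ± 0.23 in BJEL, and RARG fell by 1.504 ± 0.228 in BJELM. No gene of the list passed between BJEL and BJELM (limma, 2 with an unadjusted p under 0.05). The list's median was -0.32 in BJEL and -0.21 in BJELM against BJ.

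Among genes that keep HOX clusters closed or open, those that passed were mostly higher in the derived lines. Of 28 Polycomb genes 9 rose and 1 fell in BJEL, and 13 rose and 3 fell in BJELM, where 10.4% and 15.1% of all genes rose. SCML2 rose by 2.12 ± 0.15 in BJEL, MTF2 by 1.59 ± 0.10 and EZH2, the H3K27 methyltransferase, by 1.07 ± 0.14. Of 15 Trithorax group and H3K27 demethylase genes 5 rose in BJEL and 8 in BJELM, each by less than 2-fold. RBBP5, a core subunit of H3K4 methyltransferases, rose by 0.66 ± 0.08 in BJEL, and MEN1, a partner of KMT2A, by 0.89 ± 0.10 in BJELM.

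**Figure D4:**
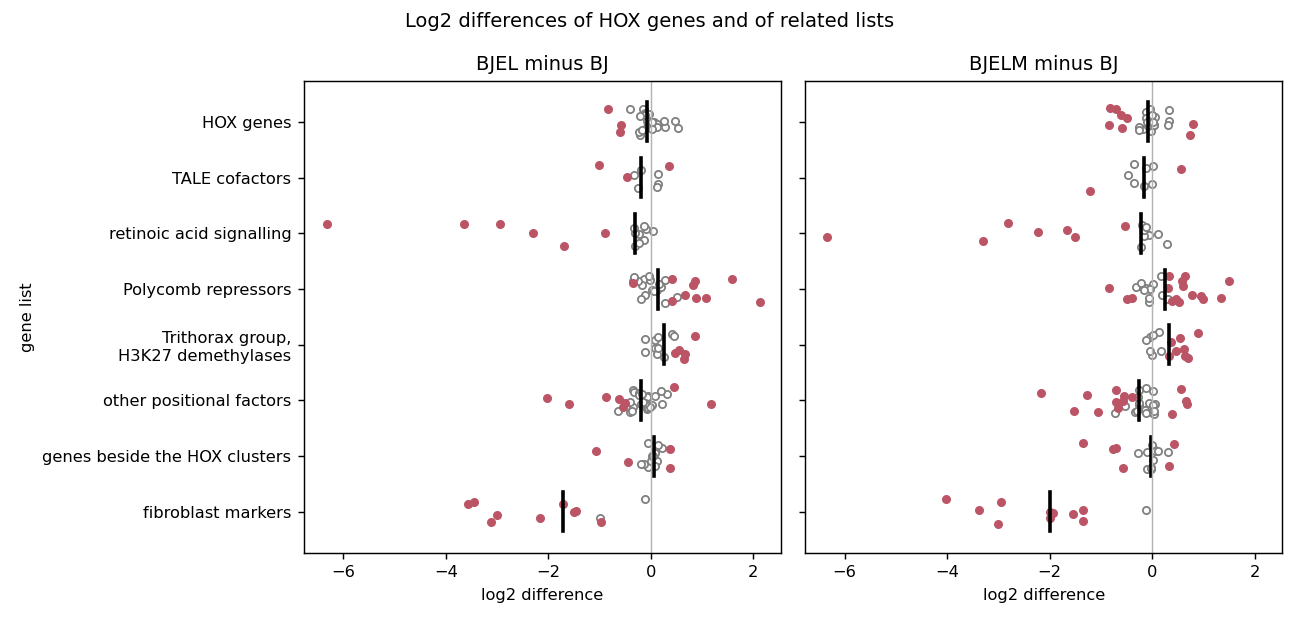
Log2 differences (horizontal axis) of single genes (circles) in the HOX genes and 7 other lists (vertical axis) for BJEL minus BJ and BJELM minus BJ. Filled circles have an adjusted p under 0.05, and black bars are list medians. HOX genes stay between -0.84 and 0.80, whereas retinoic acid genes reach -6.31 and -6.35. Most HOX genes are dim, which compresses their differences.

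Of 32 measured other transcription factors of position in limb and body wall, 2 rose and 6 fell in BJEL, where 10.4% of all genes rose and 7.13% fell. In BJELM 4 rose and 10 fell, beside 15.1% and 13.1% of all genes. In either direction 8 of the 32 passed in BJEL and 14 in BJELM, beside 17.5% and 28.2% of all genes. TBX15 read 7.75 and 7.69 in BJ, 9.09 and 8.69 in BJEL and 6.44 and 6.44 in BJELM, so that it rose by 1.17 ± 0.14 at the first step and fell by 2.45 ± 0.14 at the next. PRRX1, a factor of limb mesenchyme, fell by 2.04 ± 0.11 in BJEL and by 1.05 ± 0.11 in BJELM against BJ, and LHX9, an early limb factor, fell by 2.17 ± 0.31 in BJELM, while its difference in BJEL was -0.23 ± 0.31 (adjusted p = 0.677). MKX fell by 1.59 ± 0.2 in BJEL and differed from BJ by -1.52 ± 0.2 in BJELM.

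Genes next to the clusters were also counted. Of 18 genes beside the HOX clusters 2 rose and 2 fell in BJEL, and 2 rose and 4 fell in BJELM, where 17.5% and 28.2% of all genes passed in either direction. CALCOCO1, beyond the 5′ end of HOXC, was the single gene past 2-fold, at -1.07 ± 0.14 and -1.35 ± 0.14. LNPK, next to the 5′ end of HOXD, fell by 0.77 ± 0.10 in BJELM, whereas EVX2, between LNPK and HOXD13, differed by 0.01 ± 0.13. Of 22 listed RNAs from inside the clusters 6 were measured, among them HOXB-AS3 and genes of miR-10 and miR-196. None of the 6 passed, and by limma 0 of them had an unadjusted p under 0.05. Their mean signals were 3.72 to 6.37, all below the median gene, so this does not show that they are expressed or unchanged. The 6 caudal and ParaHox genes, relatives of the HOX genes, did not pass against BJ either (0 with an unadjusted p under 0.05).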

How the data were processed

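Total RNA from 6 arrays, 2 each of BJ, BJEL and BJELM, was measured on Affymetrix Gene 1.0 ST arrays. The log2 signals deposited by the authors come from RMA, run with its defaults in Expression Console 1.3.1 as named in the submitters' notes. This method subtracts background, brings all arrays to 1 distribution and summarizes the probes of a probe set, which compresses differences between dim signals. Arrays have no count depth, and their number limits the precision. Chromatin and genotyping data were not used here.

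The deposited table holds 33297 probe sets. The platform annotation names 19460 of them with 1 symbol and 1754 with several, and does not list 12083. Where several single-symbol probe sets named a gene, the brightest on average was kept, which gave 18417 genes. Gene order and promoters were taken from RefSeq (GRCh38.p14), in which Entrez IDs found 18389 of the genes, and 11 of 27 members had a promoter sequence. The build of the array annotation is not given in the sources used here.

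All 6 arrays entered a limma 3.58.1 fit (R 4.3.3) with a mean per line and two-sided tests, which left 3 residual degrees of freedom and 3.13 from the prior. P-values were adjusted by Benjamini-Hochberg across the 18417 genes. "Rose" and "fell" mean an adjusted p under 0.05, and a gene was counted at 2-fold where the change was also at least 2-fold. The scripts were tested on simulated data. Named genes were the members with an adjusted p under 0.05 in any comparison. From each other list they were up to 4 genes with the largest change at 2-fold or, with none, up to 2 with the lowest p. Further genes were named outside this rule, among them RARB, RARG, MEIS2, TGIF2, LNPK, EVX2 and cell type markers. Members named with the replicate block were added after their values were seen. The members and lists were chosen with earlier results of these data known.

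Labels number the arrays of each line 1 and 2 without saying what the number stands for. Over all genes, deviations of same-numbered arrays from their line means correlated at 0.448 (BJ and BJEL), 0.481 (BJ and BJELM) and 0.553 (BJEL and BJELM), so the number was taken to pair the arrays, and a fit with it as a block was run beside the one without. Counts, p-values, SEs and intervals come from the fit without the block wherever neither the block nor another alternative is named. Alternatives were leaving out each array, the block, only the lines compared, quantile normalization, median centring, an intensity trend, filters on signal, the choice of probe set, the threshold and the methods' t-test.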

Additional observations from a re-analysis of the deposited data

How the results depend on the processing

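No difference of the 8 HOX genes that passed changed direction in a fit where it or the alternative passed. Of 438 values of these genes under alternatives, 365 kept their side of the threshold, 62 lost it and 11 gained it. Counts at 2-fold were 0 or 1 throughout: leaving out 1 array gave 0 to 1 members that fell in each comparison, with HOXD10 added in BJEL against BJ without BJ replicate 1 and HOXC10 added in BJELM against BJ without BJ replicate 2. In BJELM against BJEL the count of 1 became 0 at an adjusted p under 0.01 and with the methods' t-test after Benjamini-Hochberg adjustment. With no fold minimum the counts were 3 that fell in BJEL against BJ, 2 that rose and 6 that fell in BJELM against BJ, and 1 that rose and 2 that fell in BJELM against BJEL. These counts with no fold minimum were added after the data were seen, as were those of the other gene lists. The replicate block gave 3 that rose in BJEL against BJ and 2 that rose in BJELM against BJEL, and beyond the genes named with it in the report it changed no call. Leaving out 1 array gave 0 to 1 that rose and 0 to 4 that fell in BJEL against BJ, 2 that rose (without BJ replicate 1, HOXC8 in place of HOXD8) and 3 to 6 that fell in BJELM against BJ, and 0 that rose and 0 to 2 that fell in BJELM against BJEL. HOXD8 alone rose in BJEL against BJ, a count of 1, when only the lines compared were fitted, after median centring or among genes with a line mean of at least 6. In BJELM against BJEL the rise of HOXD13 was lost, a count of 0, when only the lines compared were fitted, after median centring, with every probe set tested, at an adjusted p under 0.01 and with the methods' t-test, and with an intensity trend and robust prior HOXB9 passed in its place. HOXB9 joined it, a count of 2, among genes with a line mean of at least 6 and with the mean of a gene's probe sets. Among genes at or above the median signal, which keeps 4 members, the counts were 1 that fell in BJEL against BJ, 1 that rose and 2 that fell in BJELM against BJ, and 1 that fell in BJELM against BJEL. An adjusted p under 0.01 left 1 that rose and 3 that fell in BJELM against BJ and 1 that fell in BJELM against BJEL. The methods' t-test found 1 that fell in BJEL against BJ and 1 that rose and 3 that fell in BJELM against BJ before adjustment, and 0 in all comparisons after it. The causes of these changes were not tested, except that a filter keeps fewer genes and a left-out array fewer samples. Shares of all genes are given for the main fit and the replicate block only, so counts under other settings have no such share beside them.

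The fall of retinoic acid genes in BJELM against BJ, 6 at 2-fold, was 6 with each array left out, and in BJEL, 5 at 2-fold, it was 4 to 5. Quantile normalization and median centring moved the median of all genes by at most 0.04. With 2 arrays per line and dim signals for most HOX genes, a missed threshold does not show that levels were equal, and HOXA genes other than HOXA2 were not analysed here.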
